A study of Bos taurus with 3 samples.

Results

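The tetraspanins are small proteins that cross the cell membrane several times and expose a large loop with conserved cysteines to the outside. They bind one another and a wider set of partners, among them laminin-binding integrins, immunoglobulin-type membrane proteins and membrane proteases, and so gather these into patches of the membrane. Several, such as CD9, CD63 and CD81, are abundant on the vesicles that cells shed, and in the mouse ovary CD9 on the oocyte is needed for fusion with sperm. Their RNA was compared here between Gonadal Ridge Epithelial-Like (GREL) cells and ovarian fibroblasts. Of 10 family members listed (TSPAN2, TSPAN3, TSPAN4, TSPAN6, TSPAN13, CD9, CD63, CD81, CD82 and CD151), 9 had a probe set with a single gene symbol, out of 9155 genes on the array that did. CD82 had none and was not analysed here.

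RNA came from 3 bovine (Bos taurus) primary cultures, each hybridized to 1 Affymetrix GeneChip Bovine Genome Array. The GREL cells were 2 clonally enriched isolates of polygonal cells from separate fetal ovaries, both labelled 130 days gestation, although the methods place the fetus of isolate 1 slightly younger. The fibroblasts came from the medullar stroma of 1 adult ovary (over 1 year old) and were a single culture. The labels name no treatment. The fetal ovaries were dispersed with collagenase and their cells were grown in serum-containing medium to below confluence. For the adult stroma the methods give a higher concentration of collagenase and state no confluence at harvest. Fetal against adult age, epithelial-like against fibroblastic cell type, part of the ovary, cell preparation and donor all change together and cannot be told apart. In such cultures fewer cells of a type and less RNA per cell cannot be told apart either.

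The values are log2 expression after the authors' background subtraction and quantile normalization, and they are rounded to steps of 0.1. A difference of 1 is a doubling, and differences are given as GREL minus fibroblast. Each gene was read from its probe set of highest mean over the arrays. The fibroblasts have no replicate, so the only spread measured is that between the 2 isolates, and p-values measure that spread alone. Across all genes the gap between the isolates had a median of 0.2 and a 95th percentile of 0.8. The mean GREL minus fibroblast difference had a median of 0.05, with a 5th percentile of -1.2 and a 95th percentile of 1.35. The labelled cell types were checked against markers. Of 9 epithelial markers 8 were higher in both isolates (88.9%, beside 41.6% of all genes). Among them KRT7, KRT19, PKP2 and LSR were listed by the study as higher in GREL cells on these same arrays. Their direction is therefore not independent evidence, and they are the only epithelial markers over 3-fold higher in both isolates. KRT19 went from 7.1 in the fibroblasts to 11.3 (isolate 1) and 11.6 (isolate 2). KRT18 was bright on every array, at 10.4 in the fibroblasts, 11.4 in isolate 1 and 11.8 in isolate 2. EPCAM was higher too, but at 3.9 in isolate 1 and only 1.5 in isolate 2, against 1.0 in the fibroblasts. The exception was CDH1, at 3.6 in the fibroblasts, 4.7 in isolate 1 and 3.2 in isolate 2. Most of the 9 were dim. On no array did 7 of them exceed the 90th percentile of the other-organ genes described below, nor did 7754 of all 9155 genes. Of 11 stromal markers 9 were lower in both isolates (81.8%, beside 33.5% of all genes). The exceptions were VIM and THY1, the latter at 4.3 in the fibroblasts, 4.9 in isolate 1 and 3.4 in isolate 2. COL1A2 (10.5 or more) and VIM (10.8 or more) remained bright on every array. Of 7 granulosa cell markers 4 were higher in both isolates (57.1%, beside 41.6% of all genes), none of them over 2-fold. In both isolates 1 was lower (14.3%, beside 33.5%). The lower one was NR5A1, 2.30-fold and 2.46-fold, while FOXL2, which marks ovarian somatic cells, did not exceed 2.0 on any array and GATA4 read 6.1 in the fibroblasts, 6.7 in isolate 1 and 6.5 in isolate 2. The mean level of the 7 leukocyte markers was 1.94 in the fibroblasts and 1.84 and 2.41 in isolates 1 and 2, and that of the 5 endothelial markers lay between 1.86 and 2.10. Of 4 measured smooth muscle markers, ACTA2 (10.4 or more), DES (8.1 or more) and CNN1 (7.8 or more) were bright on every array. The other, MYH11, did not exceed 1.9.

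TSPAN2 was the tetraspanin with the widest difference among the 9. In rodents it is known from oligodendrocytes, the myelin-forming cells of the brain. On the log2 scale the fibroblasts read 2.0, GREL isolate 1 read 5.3 and isolate 2 read 4.9 (GREL 5.1 ± 0.28, SD, n = 2). Both isolates lay above the fibroblasts, 9.85-fold and 7.46-fold, and the difference of 3.10 (standard error 0.28) was larger than the gap of 0.4 between the isolates. With limma over all 24016 probe sets its adjusted p was 0.184, which misses the threshold of 0.05. By mean difference TSPAN2 ranked 24 among the 9155 genes in the upward direction. It is 1 of the genes that the study itself picked from these arrays for being higher in GREL cells, so its direction is not independent evidence. The files give no detection calls, so levels were read against 42 measured genes typical of other organs, such as liver and pituitary. Of these, 22 were as bright as TSPAN2 or brighter in the fibroblasts and 7 were in each isolate, so TSPAN2 was dim and its fold depends on values close to background. Beside it, the 3 measured glial markers (of 4 listed) had mean levels of 3.50, 3.43 and 3.70 in the fibroblasts, isolate 1 and isolate 2. In the same order the myelin proteins MBP and MOG read 4.0, 4.4 and 4.6 for MBP and 5.0, 4.5 and 4.8 for MOG, and GFAP ranged from 1.4 to 1.7.

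TSPAN13 was the other member over 2-fold higher in both isolates. Its values were 4.7 in the fibroblasts, 5.8 in isolate 1 and 5.9 in isolate 2, which is 2.14-fold and 2.30-fold higher. The isolates lay close together and apart from the fibroblasts. The mean step was 1.15 with a standard error of 0.07, and limma gave an adjusted p of 0.182. TSPAN6, which in human cells restrains signalling by the RNA sensor RIG-I, was at 8.0 in the fibroblasts, 8.4 in isolate 1 and 8.6 in isolate 2. Its second probe set was dimmer and gave 7.0, 7.6 and 7.4 in the same order. Both probe sets gave the same mean difference of 0.50, with adjusted p = 0.286 in limma for each, so separate probe sets read the same small step.

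In the other direction TSPAN4 had the lowest difference of the family members. TSPAN4 builds up on migrasomes, the vesicles that migrating cells leave behind on their retraction fibres. It was at 6.3 in the fibroblasts, 5.2 in isolate 1 and 5.1 in isolate 2, a 2.14-fold and 2.30-fold lower level. Its second probe set, at 5.8, 4.4 and 4.3, was also lower in both isolates, 2.64-fold and 2.83-fold. Neither probe set passed (adjusted p = 0.182 in limma for each). CD81, which pairs with CD9 and with immunoglobulin-type partners on many cells, was at 9.2 in the fibroblasts, 8.5 in isolate 1 and 8.3 in isolate 2. The difference of -0.80 (standard error 0.14) was larger than the gap of 0.2 between the isolates, but its adjusted p was 0.241 in limma.

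The remaining 4 members lay within 0.40 of the fibroblasts on average. CD9, which in many cells binds integrins and immunoglobulin-type partners, read 10 in the fibroblasts and 9.6 in each isolate (adjusted p = 0.182 in limma). Because the rounded values of the isolates coincide, their spread is underestimated for this gene. CD63, a tetraspanin of late endosomes and lysosomes that is carried out on exosomes, was at 10.5 in the fibroblasts, 10 in isolate 1 and 10.3 in isolate 2 (adjusted p = 0.459 in limma). Its difference of -0.35 was close to the gap of 0.3 between the isolates. TSPAN3, which in glial cells of the mouse joins claudin 11 and an integrin, was at 8.5 in the fibroblasts, 8.5 in isolate 1 and 8.2 in isolate 2. CD151, the main partner of laminin-binding integrins, was at 9.2, 9.1 and 9.2 in the same order. For both genes the fibroblast value fell on or inside the range of the isolates, and the adjusted p was 0.683 in limma. These p-values do not show that the levels were equal. The limma 95% interval of the CD151 difference of -0.05 reached 0.43 to either side, and that of the TSPAN3 difference of -0.15 reached 1.22 to either side.

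**Figure D1:**
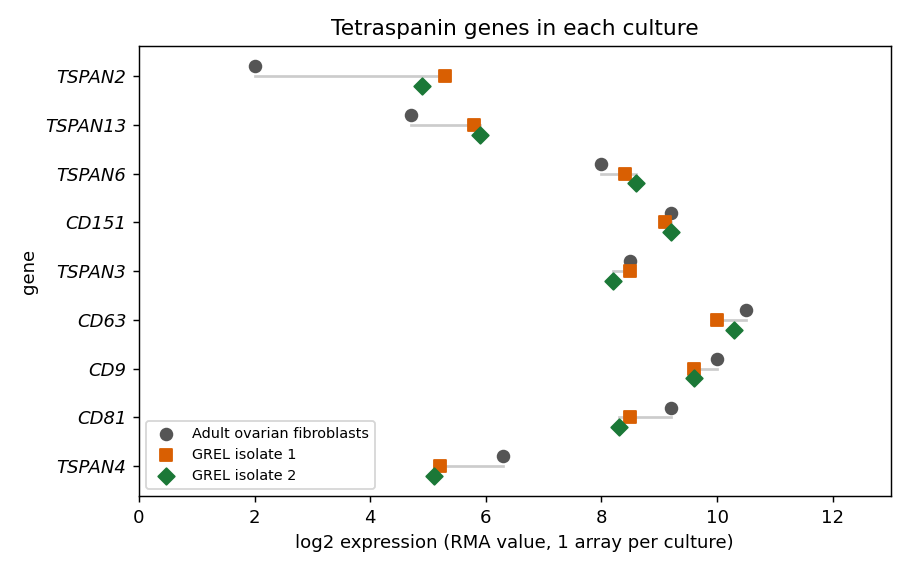
Log2 expression (RMA value, horizontal axis) of the 9 tetraspanin genes on the vertical axis, ordered by mean difference. Each culture has 1 array: circles are the fibroblasts, squares isolate 1 and diamonds isolate 2, offset vertically within a gene, and the grey line spans their range. TSPAN2 runs from 2.0 in the fibroblasts to 5.3 in isolate 1, while CD151 stays between 9.1 and 9.2 in all cultures.

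Counted over the 9 members, 1 (TSPAN2) was over 3-fold higher in both isolates, the threshold that the study used, beside 2.38% of all genes, and 0 were over 3-fold lower, beside 2.38% of all genes. At 2-fold, 2 were higher (TSPAN2 and TSPAN13), beside 5.8% of all genes, and 1 was lower (TSPAN4), beside 4.78%. By any amount, 3 were higher in both isolates (33.3% of the members, beside 41.6% of all genes), 4 were lower in both (44.4%, beside 33.5%), and 2 (CD151 and TSPAN3) did neither. The median difference of the 9 was -0.15, beside 0.05 over all genes, with members on either side of 0. Limma called 0 of the 11 probe sets of the members in either direction, as it called 0 (0% higher and 0% lower) of all probe sets, with 2354 higher and 2666 lower at an unadjusted p under 0.05. Of the members' probe sets 2 were higher and 3 lower at that unadjusted level. The one-way test that the methods name called 0 of the 10 it could test (CD9, with equal isolates, has no spread), with 1 higher and 2 lower member probe sets at an unadjusted p under 0.05. Of all 20503 probe sets that this test could use, 186 were higher and 208 lower at that unadjusted level. In limma the smallest unadjusted p of a member in its main probe set was 0.0112, for TSPAN4 and for TSPAN13. In 6 of the members the gap between the isolates was smaller than the distance of either from the fibroblasts, and the widest gap between isolates was 0.4, for TSPAN2.

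**Figure D2:**
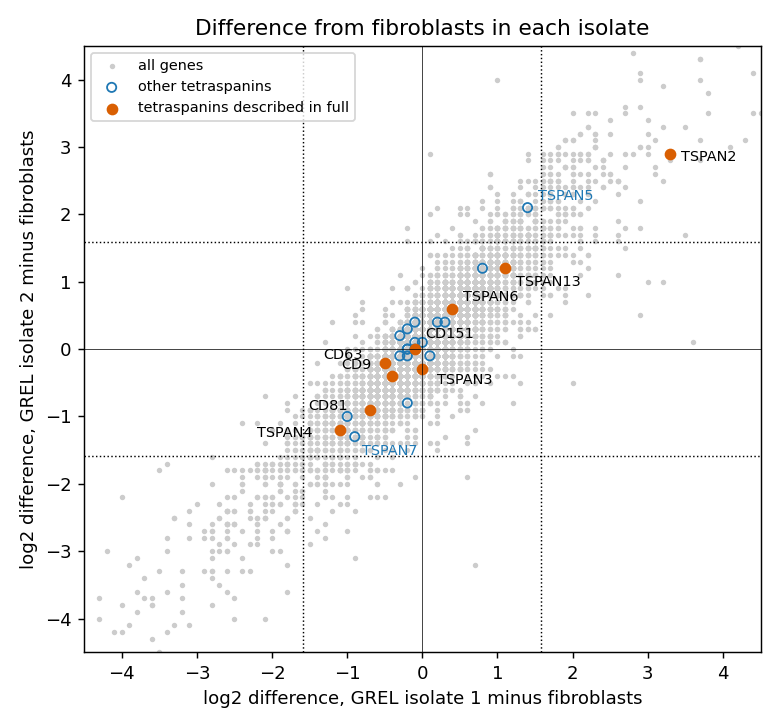
Log2 difference from the fibroblasts in GREL isolate 1 (horizontal axis) and in isolate 2 (vertical axis) for the 9 tetraspanins described in full (filled, labelled), 18 further tetraspanins (open circles, TSPAN5 and TSPAN7 labelled) and all 9155 genes (grey, 16 of them outside the axes); dotted lines mark 3-fold. Only TSPAN2 lies beyond 3-fold in both isolates among the tetraspanins, and TSPAN5 passes it in isolate 2 alone.

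Levels were also set against a background taken from the other-organ genes. Their 95th percentile was 8.39 on the fibroblast array, 9.24 on that of isolate 1 and 9.44 on that of isolate 2. Above it lay 5 of the 9 members in the fibroblasts (CD9, CD63, CD81, CD151 and TSPAN3) and 2 in both isolates (CD9 and CD63). Of all 9155 genes, 546 lay above it in the fibroblasts and 221 in both isolates. Because the level is higher on the arrays of the isolates, CD151 and TSPAN3 fell below it there with little change in value. This level is high because POMC, APOA1 and CHGA, made in the pituitary, the liver and endocrine cells, read at 8.3 or more on every array. At the 90th percentile (7.91, 7.46 and 7.34), 6 members lay above it in the fibroblasts and the same number in both isolates, TSPAN6 being added. Of all genes, 729 lay above that percentile in the fibroblasts and 1052 in both isolates. TSPAN2, TSPAN4 and TSPAN13 lay below either level on all 3 arrays, and 7754 of all genes exceeded the 90th percentile on none. The 3 members with over 2-fold differences were thus those below the 90th percentile on every array, while CD9, CD63, CD81, CD151, TSPAN3 and TSPAN6 differed by at most 0.80. Lying below this level is no proof that a gene was silent.

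Of the wider family, 23 further tetraspanins were listed, and 18 were measured. No gene among them was over 3-fold higher or lower in both isolates, and 1 (TSPAN5) was over 2-fold higher, beside 5.8% of all genes. By any amount 4 were higher in both (22.2%, beside 41.6% of all genes) and 5 were lower in both (27.8%, beside 33.5%), with a median difference of -0.03. Limma called 0 of their 23 probe sets, and the methods' test 0 of the 20 it could test. At an unadjusted p under 0.05 limma had 0 higher and 2 lower, and the methods' test had 0 in either direction. On no array did 15 of the 18 exceed the 90th percentile of the other-organ genes, nor did 7754 of all 9155 genes, a similar share. TSPAN5 had the highest difference. It was at 4.5 in the fibroblasts, 5.9 in isolate 1 and 6.6 in isolate 2, 2.64-fold and 4.29-fold higher, so that the isolates lay on either side of 3-fold (adjusted p = 0.286 in limma). TSPAN15 was at 3.1 in the fibroblasts, 3.9 in isolate 1 and 4.3 in isolate 2. TSPAN5 and TSPAN15 belong to the TspanC8 branch, whose members carry the protease ADAM10 to the cell surface. Of the 5 measured genes of this branch, a grouping made after the values were seen, TSPAN5, TSPAN14 and TSPAN15 were higher in both isolates (60%, beside 41.6% of all genes). TSPAN17 and TSPAN33 were not. None of the 5 exceeded the 90th percentile of the other-organ genes on any array. ADAM10 itself read 7.1 and 7.3 in isolates 1 and 2 against 6.5 in the fibroblasts (adjusted p = 0.261 in limma), and its 2 dimmer probe sets were higher in both isolates too. A link between the branch and the level of ADAM10 was not tested.

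TSPAN7, known from neurons, had the lowest difference of these 18 genes. It was at 8.4 in the fibroblasts, 7.5 in isolate 1 and 7.1 in isolate 2, which is 1.87-fold and 2.46-fold lower (adjusted p = 0.286 in limma). The mean difference of -1.10 was larger than the gap of 0.4 between the isolates. TSPAN18, described in human endothelial cells, read 4.2 in the fibroblasts and 3.2 in each isolate, while its other probe sets, which read between 1.0 and 1.4, gave differences of -0.25 and -0.30. CD53, found on leukocytes, was between 1.0 and 1.5, and the photoreceptor genes PRPH2 and ROM1 were between 1.4 and 1.8 and between 3.4 and 3.6. The urothelial gene UPK1A was between 1.6 and 1.7. UPK1B, its relative in urothelial plaques, was at 9.0 in the fibroblasts, 8.8 in isolate 1 and 9.3 in isolate 2, so that the fibroblasts lay inside the range of the isolates.

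**Figure D3:**
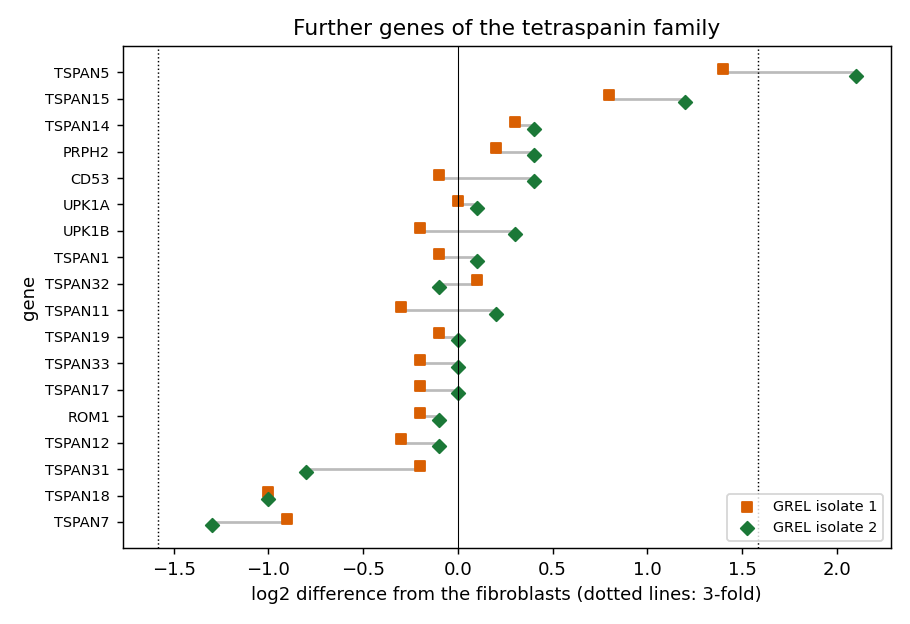
Log2 difference from the fibroblasts (horizontal axis) in GREL isolate 1 (squares) and GREL isolate 2 (diamonds) for the 18 further tetraspanins measured (rows), with dotted lines at 3-fold. The differences run from -1.10 for TSPAN7 to 1.75 for TSPAN5 by the mean of the isolates, and no gene lies beyond 3-fold in both.

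Some family members are close neighbours in the genome. In the RefSeq annotation of assembly ARS-UCD2.0, 1 gene separates TSPAN4 from CD151, and these had differences of -1.15 and -0.05. Likewise 1 gene separates CD81, with a difference of -0.80, from TSPAN32, at 2.6 in the fibroblasts and 2.7 and 2.5 in isolates 1 and 2. The genes nearest to TSPAN2 by Euclidean distance over the differences of the 2 isolates from the fibroblasts were TMEM88 (distance 0.10), LRRC1 (0.28) and PKP2 (0.28). TMEM88, a membrane protein that inhibits Wnt signalling, was at 2.1, 5.4 and 4.9 in the fibroblasts and isolates 1 and 2. PKP2 (plakophilin), found in desmosomes, read 3.3, 6.4 and 6.0 in the same order, and LRRC1 read 3.9, 7.0 and 7.0. For TSPAN4 the nearest were C3H1orf54, GBE1 (a glycogen branching enzyme) and GGCX (the vitamin K-dependent carboxylase), each with the same rounded differences of -1.10 and -1.20. In all, 8 genes lay at that distance from TSPAN4, and the 3 named are the first by symbol.

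The known partners of the tetraspanins made up a list of 40 genes in 6 groups, and 31 were measured. Of these 1 was over 3-fold higher in both isolates and 2 were over 3-fold lower, beside 2.38% of all genes in each direction. By any amount 11 were higher (35.5%, beside 41.6% of all genes) and 14 were lower (45.2%, beside 33.5%), and the median difference was -0.05, beside 0.05 over all genes. Limma called 0 of their 55 probe sets, with 6 higher and 8 lower at an unadjusted p under 0.05, and the methods' test called 0 of all probe sets. Among 6 integrin subunits, ITGB1, the beta chain shared by most tetraspanin-bound integrins, was at 10.3 in the fibroblasts, 10.5 in isolate 1 and 10.4 in isolate 2. ITGA3, an alpha chain that pairs with CD151, was at 2.9, 3.3 and 3.0, so ITGB1 and ITGA3, like CD151, stayed within 0.25 of the fibroblasts on average. ITGA3 was dim, however. In the fibroblasts and isolates 1 and 2, 16, 11 and 13 of the 42 other-organ genes were as bright or brighter. Its small difference therefore does not show a steady level. ITGA7, a laminin receptor of muscle, was the partner over 3-fold higher, at 2.9 in the fibroblasts, 4.5 in isolate 1 and 5.4 in isolate 2, but its other probe sets gave 0.40 and -0.10. ITGA5, of the fibronectin receptor, was at 5.0, 3.6 and 3.4 in the same order, and its other probe sets, both below 2, gave 0.35 and -0.20. ITGA4, an alpha chain of leukocyte integrins, read 1.3 and 1.4 in isolates 1 and 2 against 1.7 in the fibroblasts.

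TIMP1, a protease inhibitor that binds CD63 at the cell surface, was over 3-fold lower in both isolates. It was at 12.3 in the fibroblasts, 9.8 in isolate 1 and 10.1 in isolate 2, 5.66-fold and 4.59-fold lower (adjusted p = 0.184 in limma), and its second probe set gave 11.8, 9.6 and 9.7. The difference of CD63 was -0.35. MMP14, a membrane-bound protease, was at 4.4, 3.1 and 2.2 in the fibroblasts and isolates 1 and 2, and DPP4, a membrane peptidase, at 1.8, 2.0 and 1.5. KIT, the receptor for stem cell factor, was also over 3-fold lower in both isolates at its brightest probe set, at 5.7, 1.5 and 2.7. Of its 3 other probe sets 1 gave 4.4, 1.6 and 1.8, and the rest were dim and gave differences of -0.60 and 0.55. MET, the receptor for hepatocyte growth factor, read 4.2 in each isolate against 3.7 in the fibroblasts, and EGFR, the receptor for epidermal growth factor, did not exceed 1.5 on any array.

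Among 6 measured membrane partners, 5 were lower in both isolates (83.3%, beside 33.5% of all genes) and 1 (EPCAM) was higher (16.7%, beside 41.6%), and none was over 3-fold in both. CD44, the hyaluronan receptor, read 8.3 in each isolate against 9.2 in the fibroblasts. CLDN1, a tight junction protein that binds CD81, was at 9.1 in the fibroblasts, 8.5 in isolate 1 and 6.9 in isolate 2, and EPCAM at 1.0, 3.9 and 1.5. In CLDN1 and EPCAM the isolates lay further apart (1.6 and 2.4) than in any tetraspanin, where the widest gap was 0.7. IGSF8, the immunoglobulin-type partner of CD9 and CD81, was at 3.8, 3.5 and 3.7.

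Among 9 genes of the vesicle pathway 3 were higher in both isolates (33.3%, beside 41.6% of all genes), 2 were lower (22.2%, beside 33.5%) and none was over 2-fold in both, with a median difference of 0.05. SDCBP (syntenin), an adaptor that binds CD63, was at 8.9 in the fibroblasts, 9.0 in isolate 1 and 8.8 in isolate 2. RAB27A, which docks vesicles for secretion, was at 4.7, 5.5 and 5.7, and VPS4B, an ATPase of vesicle budding, at 6.1, 6.6 and 6.7. LAMP2, a protein of the lysosomal membrane, where CD63 is also found, was at 8.5, 7.7 and 7.4, and its second probe set was at 3.0, 2.6 and 2.6. LAMP1, of the same membrane, was at 9.1, 8.4 and 8.9, with the isolates further apart (0.5) than the mean difference of -0.45 (adjusted p = 0.542 in limma), and its second probe set gave 0.05. Of the 3 measured signalling partners, the adaptor YWHAZ was 2.30-fold and 2.14-fold higher. It was at 6.9 in the fibroblasts, 8.1 in isolate 1 and 8.0 in isolate 2 (adjusted p = 0.182 in limma). PI4K2A, a lipid kinase found with tetraspanins, read 4.6 in each isolate against 5.2 in the fibroblasts, but its other probe sets gave differences of 0 and -0.10. PRKCA, a protein kinase C, was at 1.8, 2.2 and 2.3, and its second probe set went the other way, by -0.35.

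**Figure D4:**
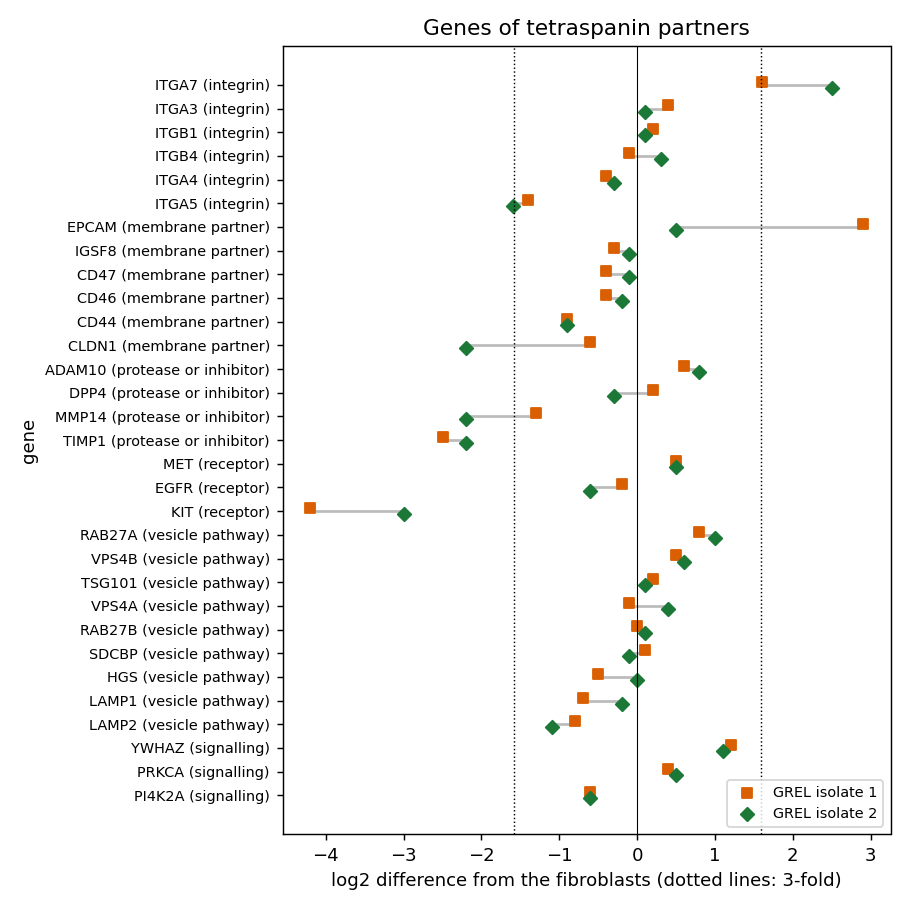
Log2 difference from the fibroblasts (horizontal axis) in GREL isolate 1 (squares) and GREL isolate 2 (diamonds) for the 31 measured genes of tetraspanin partners, with the role of each in brackets, with dotted lines at 3-fold. TIMP1 and KIT lie beyond 3-fold on the low side in both isolates, and ITGA7 lies at 3.03-fold and 5.66-fold on the high side.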

How the data were processed

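Per the methods and the submitters' processing notes, the authors used Partek 6.5 to subtract the RMA background, quantile normalize the arrays and take log2. The deposited log2 values are rounded to 0.1 and carry no detection calls. The table held 24128 probe sets. After removal of 112 controls 24016 remained, of which 13292 had 1 symbol in the platform annotation, 86 several and 10638 none. All 9 members matched the current bovine gene table. The isolates were set against the fibroblasts in limma 3.58.1 (lmFit and eBayes, 1 residual degree of freedom, Benjamini-Hochberg) in R 4.3.3, which assumes that the single fibroblast culture varies like the isolates. In 3513 probe sets the rounded isolates coincide. On simulated data the scripts were required to return the planted mean differences. The number of changed genes that a test should call was not part of that requirement. Python 3.11.15 with pandas 2.3.3 was used for the tables. The members and lists were chosen with earlier results of these data known. Text names all members, up to 2 highest and 2 lowest genes of each other list, markers, and the 3 genes nearest to the highest and lowest member. Further named tetraspanins and partner genes were picked after their values were seen. The background level came from 42 measured genes of other organs. Alternatives were the methods' one-way test, a trend or robust prior, spreading values within the rounding step, a filter on dim values, 2 scalings, the mean over probe sets, a 2-fold threshold and leaving out an isolate. The number of arrays limits the precision.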

Additional observations from a re-analysis of the deposited data

How the results depend on the processing

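With each array quantile normalized again or centred on its median, every one of the 9 members kept its direction, and so did the 26 other genes tracked, except DPP4, which went from -0.05 to 0.05 when quantile normalized again. Centring lowered every mean difference by the same 0.05, so no member could change sign by it. The authors had already quantile normalized the values, so neither is a strong check. The median of the members moved to -0.35 with only genes above the background level (95th percentile) on at least 1 array. That filter removed TSPAN2, TSPAN4, TSPAN6 and TSPAN13, and with them every member higher in both isolates, so 0 members were over 3-fold higher. Of all genes it left 11 higher and 46 lower. The level is 8.39 on the fibroblast array but 9.24 and 9.44 on those of isolates 1 and 2. The filter thus favours genes bright in the fibroblasts, and these shifts cannot show a direction. At 2-fold 2 members were higher and 1 lower, among 531 and 438 genes. Without isolate 1 or isolate 2 the members stayed at 1 higher and 0 lower, while all genes ranged from 263 (without isolate 2) to 431 (without isolate 1) higher and from 251 to 331 lower, against 218 each. Limma with a robust prior called 571 probe sets higher and 618 lower, against 0, among them CD9 (adjusted p = 0.0461) and TSPAN18 (0.0452), in each of which the isolates round to the same value, but not TSPAN2 (0.202). Spreading the values within the rounding step gave medians of 308.5 and 387.5 over 20 draws. TSPAN2 passed in 20 of 20 draws (median adjusted p = 0.0271) and the second probe set of TSPAN4 in 11 (0.0496). The other settings of limma and the methods' test called no probe set. Over all settings the adjusted p of TSPAN2 ranged from 0.0271 to 0.663. No test was possible without an isolate, since no residual degree of freedom is left. No paired analysis was possible because the fibroblasts are a single culture. The mean over all probe sets moved 8 of the 35 genes tracked by more than the spread of their isolates. Many of the 35, among them every measured member but TSPAN4 and TSPAN6, have 1 probe set and could not move. Of those with more, TSPAN6, CLDN1, TIMP1, MMP14, ADAM10, DPP4, EGFR, LAMP1 and RAB27A stayed within that spread. TSPAN4 went from -1.15 to -1.30, TSPAN18 from -1 to -0.52, ITGA5 from -1.50 to -0.45, ITGA7 from 2.05 to 0.78, KIT from -3.60 to -1.59, LAMP2 from -0.95 to -0.68, PI4K2A from -0.60 to -0.23 and PRKCA from 0.45 to 0.05.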
